A study of Mus musculus with 10 samples.

Results

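Expression of 10 genes of the epithelial-mesenchymal transition (EMT) was examined in mouse lung tumours in which Slc2a1, which encodes the glucose transporter Glut1, had been targeted, and in control tumours. The genes were Cdh1, Cdh2, Epcam, Vim, Zeb1, Zeb2, Snai1, Snai2, Twist1 and Twist2, found by their symbols among the 39017 genes of the count table. In an EMT, epithelial cells loosen their junctions and take on a mesenchymal, more motile state. Transcriptional repressors of the Zeb, Snail and Twist families bind E-box motifs in the promoters of junction genes such as Cdh1, and E-cadherin then gives way to N-cadherin while the filament protein vimentin rises. In lung adenocarcinoma, high E-cadherin marks well differentiated epithelial tumours.

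The data were read counts from 10 RNA sequencing libraries, 5 of the group KP and 5 of the group KPG1. All mice were males of the strain C57BL/6 with the engineered alleles of the KP lung tumour model. Tumours were started by a virus, Ad5-SPC-Cre, given into the trachea, in which the SPC promoter limits Cre to cells that make surfactant protein C. Tumours were taken 18 weeks and 6 days later and dissociated, and cells with the leukocyte marker CD45 were removed with magnetic beads before RNA extraction. KPG1 mice were homozygous for floxed Glut1. For the KP mice, 1 label gives a heterozygous floxed Glut1 allele whereas the protocol names none, so the KP level of any gene here is that of the labelled control group. The age of the mice at tumour initiation, and whether a library came from 1 tumour or from all tumours of 1 mouse, are not given in the sources used here. The p-values therefore measure the spread between these libraries.

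Each library held between 32427029 and 49534284 counts. Slc2a1 itself was examined first. It had 3264, 4040, 4567, 4604 and 3122 counts in KP 1 to KP 5 and 2166, 2582, 1799, 1794 and 1726 counts in KPG1 1 to KPG1 5. CPM below is each gene's share of the counts after TMM scaling, and log2 CPM its logarithm. Slc2a1 averaged 6.63 ± 0.38 log2 CPM in the 5 KP libraries and 5.63 ± 0.27 in the 5 KPG1 libraries (SD). The groups did not overlap, and the exact two-sided permutation p was 0.00794, the lowest this design allows. In limma, the log2 fold change was -1.01 with an adjusted p of 0.0675. KP 5 stood apart from the other KP libraries for many genes, and the values of the EMT genes that it moved by over 1.5 times are given with and without it.

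No difference between KP and KPG1 passed the test for any of the 8 EMT genes with enough counts. Of these, 0 passed an adjusted p of 0.05 in limma, against 28 of all 16216 genes tested (0.173%). An unadjusted p under 0.05 was found for 0 of the 8 in limma, in edgeR's quasi-likelihood test and in DESeq2, whereas 11.6% of all genes had one in limma. The groups overlapped for all 8, and they did not overlap for 2.81% of all genes. Epcam, Zeb1, Zeb2 and Snai1 had a positive log2 fold change (KPG1 minus KP) and Cdh1, Cdh2, Vim and Snai2 a negative one. The median log2 fold change was -0.02 over the 8 genes and 0.02 over all genes. The 95% intervals still allowed sizeable changes for some genes, since that of Cdh2 ran from a fold of 0.326 to 2.15 whereas that of Cdh1 ran from 0.701 to 1.24. In RNA of mixed cells from CD45-depleted tumours, a change in cell-type numbers and a change of RNA per cell cannot be told apart.

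**Figure D1:**
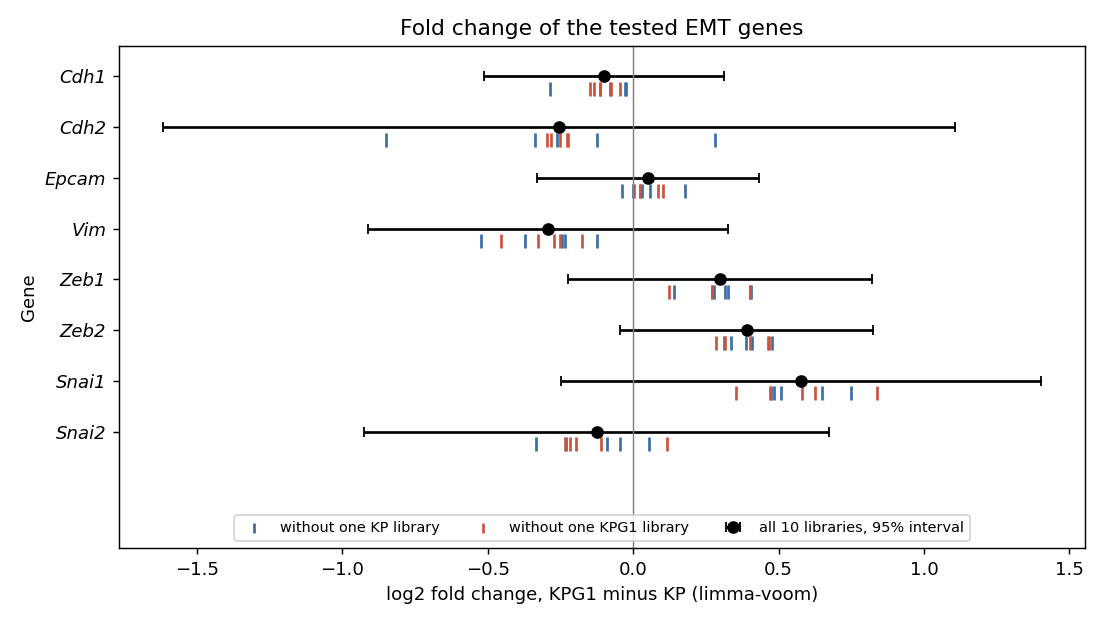
Log2 fold change (KPG1 minus KP, limma-voom) of the 8 EMT genes tested, on the horizontal axis, with its 95% interval from all 10 libraries (black point and bar) and the values with 1 library left out (ticks, blue for a KP library and red for a KPG1 library). Every interval includes 0, and the interval of Cdh2 is the widest, with its estimate moving from -0.85 to 0.28 as single libraries are left out.

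Levels were compared between genes per length, as CPM per kilobase of exon. The epithelial genes were the most abundant. Cdh1 stood at 233 ± 57.5 CPM per kilobase in KP and 212 ± 20.4 in KPG1 (SD, n = 5 each), and Epcam at 197 ± 52.4 in KP and 200.2 ± 25.3 in KPG1. The ranges of these 2 genes overlapped in both groups, so their order is not separated from the spread. Vim followed at 45.6 ± 17.4 CPM per kilobase in KP and 35.9 ± 10.2 in KPG1, below Cdh1 in all 10 libraries. The ratio of Cdh1 to Vim per kilobase lay between 4.04 and 8.72.

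The repressors and Cdh2 were far lower. In KP, mean levels per kilobase were 1.55 ± 0.35 CPM for Zeb1, 1.21 ± 0.45 for Snai1, 0.720 ± 0.28 for Snai2, 0.559 ± 0.58 for Cdh2 and 0.379 ± 0.063 for Zeb2. In KPG1 they were 1.901 ± 0.59 for Zeb1, 1.89 ± 0.88 for Snai1, 0.647 ± 0.21 for Snai2, 0.306 ± 0.028 for Cdh2 and 0.499 ± 0.11 for Zeb2. Zeb1 and Snai1 overlapped in both groups. Cdh2 had a higher mean than Zeb2 in KP and a lower mean in KPG1, and the order in KP rested on KP 1, without which the means were 0.312 for Cdh2 and 0.355 for Zeb2. Twist1 and Twist2 lay at 0.0978 and 0.00623 CPM per kilobase in KP and at 0.0805 and 0.00467 in KPG1.

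**Figure D2:**
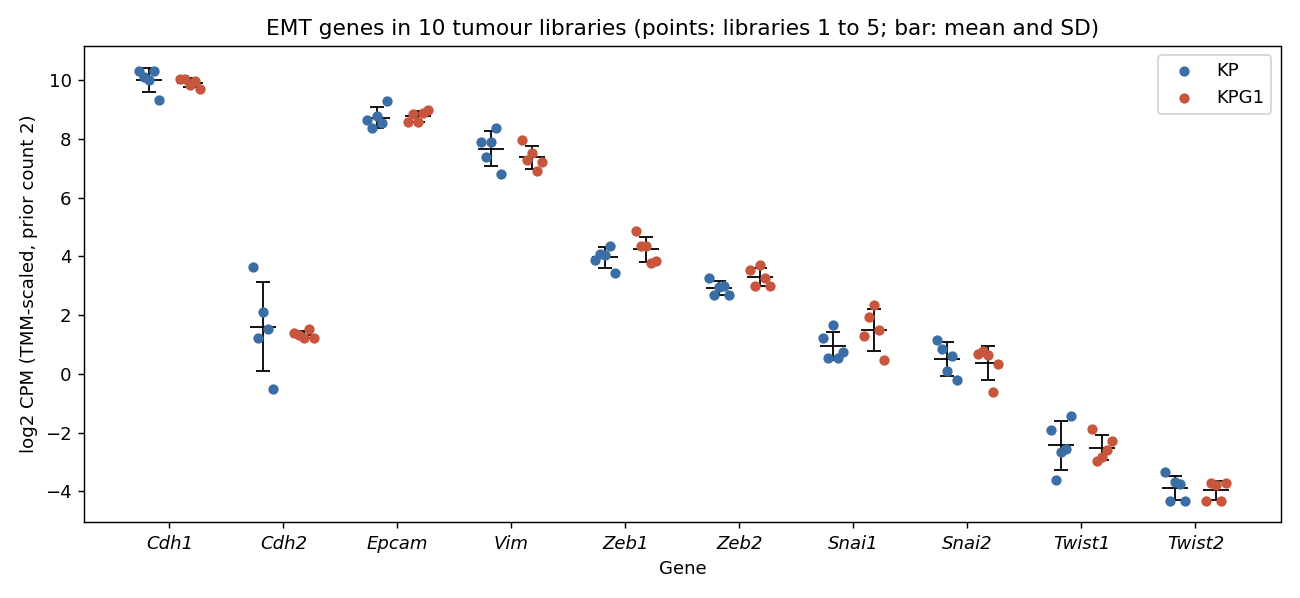
Log2 CPM of each EMT gene in each library, KP and KPG1 side by side, with 1 point per library and bars for the mean and SD of each group (n = 5). The points of the groups overlap for every gene, and Cdh2 spans from -0.53 to 3.65 in KP but only from 1.21 to 1.51 in KPG1.

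Cdh1 (ENSMUSG00000000303, protein coding, chromosome 8, 106603351 to 106670246, plus strand, mm10) encodes E-cadherin, the adhesion protein of epithelial adherens junctions. It stood at 1275, 1104, 1024, 1280 and 637 CPM in KP 1 to KP 5. In KPG1 1 to KPG1 5 it stood at 1055, 1043, 910.0, 999 and 836 CPM. KP 5 was the lowest of all 10 libraries and the other KP libraries lay above most KPG1 libraries, but KP 3 lay below KPG1 1 and KPG1 2, so the groups overlapped with or without KP 5. KPG1 minus KP came to a log2 fold change of -0.10 for Cdh1 (standard error 0.19, adjusted p 0.874 in limma). Without KP 5 it was -0.28, and this was the only library whose removal brought the unadjusted limma p of Cdh1 below 0.05. It was -0.19 with library weights and nearest to 0 without KP 1, at -0.024. With counts between 27750 and 54232, depth does not limit this gene.

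The genes whose levels followed Cdh1 most closely shared its chromosome. Over the 10 libraries, Kars, an aminoacyl-tRNA synthetase gene, was the likest (Pearson r 0.97, Spearman rho 0.92), followed by Arhgef18 (r 0.95, rho 0.95) and Cog4 (r 0.94, rho 0.92). All 3 lie on chromosome 8. Without KP 5 and KP 4, the libraries farthest from the median of Cdh1, r was 0.91 for Kars, 0.82 for Arhgef18 and 0.85 for Cog4. These are descriptions across libraries that share depth and tumour of origin.

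The position of the likest genes was examined after their names were seen. Of the 50 genes most like Cdh1, 40 lay on chromosome 8, which is 80% of them, while 5.55% of the 12780 genes searched lie there. Without KP 5, 18 of the 50 likest genes lay there. For the other 7 tested EMT genes, between 0 and 7 of the 50 likest genes shared the gene's own chromosome. Their likest genes on chromosome 8 were not counted among the 50. Among the 3 likest genes of each, Prdx2 and 1700030K09Rik for Cdh2, Ap1m1 for Zeb1 and Terf2 for Snai2 lay there, and the rest lay elsewhere.

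Levels of chromosome 8 genes as a whole moved with Cdh1, most of all in KP 5, but not in every library. Relative to genes elsewhere, the other chromosome 8 genes deviated from their own mean over the libraries by a median log2 CPM of 0.18, 0.07, 0.01, 0.14 and -0.41 in KP 1 to KP 5. In KPG1 1 to KPG1 5 it was 0.09, 0.11, 0.03, -0.07 and -0.14. KP 5 was therefore lowest for the chromosome as it was for Cdh1, whose own deviation there was -0.65, and it was the lowest library for 49.7% of 710 chromosome 8 genes against 17.7% of 12071 other genes. Chromosome 8 was not alone in this library, since chromosome 16 deviated more, by 0.50 upwards. In no library was chromosome 8 the one that deviated most. In KPG1 3, Cdh1 deviated by -0.13 whereas the chromosome deviated by 0.03. After the median of its chromosome was subtracted in each library, the SD of Cdh1 went from 0.41 to 0.18 in KP and from 0.14 to 0.09 in KPG1. For Epcam, the same subtraction took the SD from 0.35 to 0.32 in KP and from 0.19 to 0.27 in KPG1. It raised the SD in KP for Cdh2, Vim, Zeb1, Zeb2, Snai1 and Snai2, the last, on chromosome 16, from 0.56 to 0.73. The SD in KPG1 fell for Zeb1 (0.44 to 0.35) and Snai1 (0.71 to 0.62) and rose for Cdh2, Vim, Zeb2 and Snai2. Why levels along a chromosome differed between tumours was not tested.

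**Figure D3:**
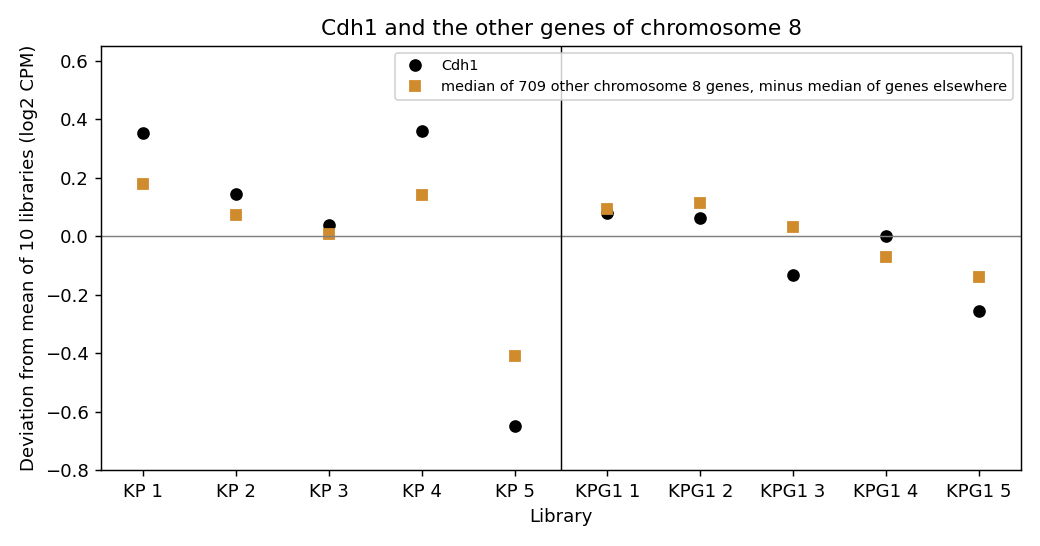
Deviation from the mean of the 10 libraries (vertical axis, log2 CPM) by library, for Cdh1 (black circles) and for the median of the 709 other chromosome 8 genes relative to the median of genes elsewhere (yellow squares), with KP on the left of the vertical line and KPG1 on the right. KP 5 is the lowest library for both, at -0.65 for Cdh1 and -0.41 for the chromosome.

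Epcam (ENSMUSG00000045394, protein coding, chromosome 17, 87635979 to 87651129, plus strand, mm10) encodes an epithelial cell adhesion molecule. The bases before its start are shown because it is the one EMT gene measured here with a window in the RefSeq promoter table that holds more than 1 copy of the E-box CACCTG, the motif known to be bound by Zeb and Snail proteins. Snai1, which carries 1 copy in the same window, is shown beside it. Capitals mark the E-box, read on either strand as CACCTG or CAGGTG, and both windows are from RefSeq on GRCm38.p6, 5′ to 3′ on the plus strand, ending at the base before the gene's start.

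Epcam, chr17:87635729-87635978: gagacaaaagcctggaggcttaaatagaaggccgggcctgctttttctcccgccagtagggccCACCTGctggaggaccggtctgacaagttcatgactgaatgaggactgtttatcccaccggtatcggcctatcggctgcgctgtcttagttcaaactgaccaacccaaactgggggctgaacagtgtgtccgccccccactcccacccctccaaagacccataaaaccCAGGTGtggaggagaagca
Snai1, chr2:167537945-167538194: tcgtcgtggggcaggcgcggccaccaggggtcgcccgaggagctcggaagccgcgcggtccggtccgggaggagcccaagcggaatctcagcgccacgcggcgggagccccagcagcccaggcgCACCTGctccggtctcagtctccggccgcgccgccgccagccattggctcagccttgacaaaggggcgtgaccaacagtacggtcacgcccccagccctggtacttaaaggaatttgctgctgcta

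The E-boxes of Epcam begin 187 and 19 bases before the start, and that of Snai1 126 bases before it. Windows were held for 6 of the 10 genes, namely Epcam, Vim, Zeb2, Snai1, Twist1 and Twist2, 9 windows in all. Of all 32851 windows of 250 bases, 17.2% hold the motif and 2.06% hold it more than once. A match of these letters is a description and not a binding site.

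Epcam stood at 8.63, 8.38, 8.78, 8.52 and 9.29 log2 CPM in KP 1 to KP 5. It stood at 8.57, 8.86, 8.58, 8.87 and 8.98 in KPG1 1 to KPG1 5. KP 5 was the highest of all libraries and the groups overlapped. Between the groups, Epcam had a log2 fold change of 0.05 (standard error 0.17, adjusted p 0.934 in limma). It was 0.18 without KP 5 and -0.040 without KP 2. The 2 epithelial adhesion genes thus lay at opposite ends in KP 5, where the ratio of Cdh1 to Epcam per kilobase was 0.488, whereas in the rest of KP it was 1.12 to 1.67 and in KPG1 0.797 to 1.33. The genes most like Epcam were Slc7a4 (r 0.94, rho 0.87), Rph3al (r 0.94, rho 0.95) and Tmed4 (r 0.89, rho 0.79), and r fell to 0.84, 0.91 and 0.77 without KP 5 and KP 2.

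Cdh2 (ENSMUSG00000024304, protein coding, chromosome 18) encodes N-cadherin, the cadherin of mesenchymal, neural and muscle cells. It had 517, 72, 159, 121 and 28 counts in KP 1 to KP 5 and 118, 94, 100, 98 and 89 counts in KPG1 1 to KPG1 5. In log2 CPM these were 3.65, 1.21, 2.12, 1.54 and -0.53 in KP and 1.39, 1.31, 1.21, 1.51 and 1.22 in KPG1. KP 1 was the highest and KP 5 the lowest of all libraries, and the 5 KPG1 libraries lay between them within a narrow range. For Cdh2 this gave a log2 fold change of -0.26 (standard error 0.62, adjusted p 0.904 in limma). Its sign rested on KP 1, without which it was 0.28. It was -0.85 without KP 5, -0.87 in edgeR and -0.88 in DESeq2.

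The spread of Cdh2 between tumours was 19.4-fold in KP and 1.24-fold in KPG1. The SD of log2 CPM was 1.51 in KP, where 3.00% of all tested genes had a larger one, and 0.13 in KPG1, where 87.4% had a larger one. The ratio of these SDs was 12.1, and 0.117% of all tested genes had a ratio at least as high. This ratio is a description, with no test. At 89 to 118 counts per library in KPG1, counting error is not small beside an SD of 0.13. The size of the ratio is therefore uncertain. The SD in KP was 1.14 without KP 1, 1.08 without KP 5 and 0.46 over the 3 libraries left without both, still above that of KPG1.

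The summed level of 7 pericyte and smooth muscle markers, cells that themselves make N-cadherin, was also highest in KP 1 and lowest in KP 5. It was 284, 126, 132, 87.6 and 75.3 CPM in KP 1 to KP 5. In KPG1 1 to KPG1 5 it was 176, 116, 197, 109 and 175 CPM, and there KPG1 3 had the highest sum and a Cdh2 level of 1.21, the lowest of the group. Of the 7 markers, 6 had a positive log2 fold change, with a median of 0.34, and none was at 0 in all libraries. The part of these cells in the spread of Cdh2 was not tested. Of the genes most like Cdh2, Prdx2 (r 0.95, rho 0.88) and Kansl3 (r 0.94, rho 0.93) kept an r of 0.86 and 0.91 without KP 1 and KP 5, whereas 1700030K09Rik went from 0.95 to 0.37.

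Vim (ENSMUSG00000026728, protein coding, chromosome 2, 13573927 to 13582826, plus strand, mm10) encodes vimentin, the intermediate filament of mesenchymal, endothelial and blood cells. Vim stood at 7.90, 7.37, 7.89, 8.36 and 6.79 log2 CPM in KP 1 to KP 5. In KPG1 1 to KPG1 5 it stood at 7.95, 7.27, 7.52, 6.89 and 7.22. KP 4 was the highest and KP 5 the lowest library, and the KPG1 libraries lay inside that range. Vim had a log2 fold change of -0.29 (standard error 0.28, adjusted p 0.726 in limma). It lay between -0.52 without KP 5 and -0.12 without KP 4, and was -0.49 with library weights. The likest genes were Slc29a1 (r 0.94, rho 0.93), Arhgef3 (r 0.93, rho 0.92) and Serpinb1a (r 0.93, rho 0.87). Without KP 4 and KP 5, r was 0.94, 0.89 and 0.87.

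Zeb1 (ENSMUSG00000024238, protein coding, chromosome 18) encodes a zinc finger repressor of Cdh1. The KP libraries held 3.88, 4.09, 4.05, 4.36 and 3.42 log2 CPM of it, from KP 1 to KP 5. The KPG1 libraries held 4.85, 4.35, 4.36, 3.79 and 3.84 in KPG1 1 to KPG1 5. The highest library was KPG1 1 and the lowest KP 5, and the groups overlapped. Its log2 fold change was 0.30 (standard error 0.24, adjusted p 0.662 in limma). It was 0.12 without KPG1 1, 0.14 without KP 5 and 0.074 with library weights.

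Zeb2 (ENSMUSG00000026872, protein coding, chromosome 2, 44983632 to 45117395, minus strand, mm10) encodes the related repressor, and Zeb2os lies on the opposite strand within its span. Reads of this pair could be separated only if the counting used strand, which is not given in the sources used here. Zeb2 stood at 3.25, 2.69, 2.94, 2.99 and 2.69 log2 CPM in KP 1 to KP 5 and at 3.53, 2.98, 3.70, 3.25 and 3.00 in KPG1 1 to KPG1 5. KPG1 3 and KPG1 1 were the highest, and KP 2 and KP 5 the lowest. Its log2 fold change was 0.39 (standard error 0.20, adjusted p 0.479 in limma), with a 95% interval from -0.04 to 0.82. It was positive under every alternative in which it was tested and with each library left out.

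The summed level of 8 endothelial markers shared its highest and lowest library with Zeb1. Endothelial cells make Zeb1, Zeb2 and Vim themselves. The sum was 451, 685, 774, 479 and 256 CPM in KP 1 to KP 5 and 1156, 589, 570, 393 and 598 CPM in KPG1 1 to KPG1 5. KPG1 1, the highest library, was also the highest for Zeb1 and the highest of its group for Vim, and KP 5, the lowest, was the lowest for Zeb1, Zeb2 and Vim. Zeb2 was highest in KPG1 3, where the sum was 570 CPM, and KP 3, next to KPG1 1 in its sum, lay inside the range of the other libraries for Zeb1 and Zeb2. All 8 endothelial markers had a positive log2 fold change, with a median of 0.32 beside 0.02 over all genes. In limma, 0 of them passed the adjusted threshold, beside 0.173% of all genes. An unadjusted p under 0.05 was found for 0 of them in limma, beside 11.6% of all genes. Another sum, of 8 fibroblast markers, was likewise highest in KPG1 1 (354 CPM) and lowest in KP 5 (119 CPM). The part of endothelial cells or of fibroblasts in these levels was not tested. The genes most like Zeb1 were Lhpp (r 0.95, rho 0.87), Sema6d (r 0.94, rho 0.90) and Ap1m1 (r 0.93, rho 0.84), with an r of 0.86, 0.82 and 0.83 without KPG1 1 and KP 5. Those most like Zeb2 were Pde5a (r 0.95, rho 0.88), Cops7b (r 0.90, rho 0.89) and BC068281 (r 0.90, rho 0.71), with an r of 0.83, 0.85 and 0.64 without KPG1 3 and KPG1 1.

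Snai1 (ENSMUSG00000042821, protein coding, chromosome 2, 167538195 to 167542814, plus strand, mm10) encodes Snail, a repressor of Cdh1 that acts early in EMT. It had 94, 45, 115, 60 and 70 counts in KP 1 to KP 5 and 109, 145, 224, 96 and 52 counts in KPG1 1 to KPG1 5. In log2 CPM these were 1.21, 0.55, 1.66, 0.55 and 0.73 in KP and 1.28, 1.93, 2.36, 1.48 and 0.47 in KPG1. KPG1 3 was the highest and KPG1 5 the lowest of all libraries, and KP 3 also lay above KPG1 1 and KPG1 4, so the groups overlapped. For Snai1 the fitted log2 fold change was 0.58 (standard error 0.38, adjusted p 0.586 in limma), the largest in size among the 8 genes, and it was 0.84 without KPG1 5 and 0.36 without KPG1 3. The likest genes were Gpr153 (r 0.88, rho 0.88), the Notch ligand gene Dll4 (r 0.87, rho 0.84) and Samsn1 (r 0.87, rho 0.85). Without KPG1 3 and KPG1 5, r was 0.82, 0.76 and 0.84.

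Snai2 (ENSMUSG00000022676, protein coding, chromosome 16, 14705852 to 14709385, plus strand, mm10) encodes Slug, the relative of Snail. It had 91, 56, 38, 63 and 35 counts in KP 1 to KP 5 and 70, 65, 67, 21 and 47 counts in KPG1 1 to KPG1 5. In log2 CPM these were 1.17, 0.86, 0.10, 0.62 and -0.23 in KP and 0.66, 0.79, 0.65, -0.62 and 0.33 in KPG1. KP 1 was the highest and KPG1 4 the lowest, with overlapping groups and counts low enough that counting error adds to the spread. For Snai2 the fitted log2 fold change was -0.13 (standard error 0.37, adjusted p 0.920 in limma), and it was 0.12 without KPG1 4, 0.05 without KP 1 and -0.34 without KP 5. The likest genes were Plcb4 (r 0.88, rho 0.90), Terf2 (r 0.88, rho 0.83) and Sncaip (r 0.88, rho 0.88), with an r of 0.73, 0.78 and 0.90 without KPG1 4 and KP 5.

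Twist1 and Twist2, basic helix-loop-helix factors of mesenchymal development, were at the limit of detection. Twist1 (ENSMUSG00000035799, chromosome 12, 33957671 to 33959829, plus strand, mm10) had 9, 1, 4, 5 and 14 counts in KP 1 to KP 5 and 10, 3, 4, 4 and 6 counts in KPG1 1 to KPG1 5. Twist2 (ENSMUSG00000007805, chromosome 1, 91801461 to 91848028, plus strand, mm10) had 2, 0, 1, 1 and 0 counts in KP and 0, 1, 1, 0 and 1 counts in KPG1. A library with 0 counts could have held up to 3, by counting error alone. Neither gene passed the filter on low counts, and a difference was not detectable at this depth.

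The within-group spread did not move one way for the EMT genes. The SD in KP was larger than in KPG1 for Cdh1 (ratio 2.90), Cdh2, Epcam (1.89) and Vim (1.53), and smaller for Zeb1 (0.796), Zeb2 (0.734), Snai1 (0.679) and Snai2 (0.981). It was larger in KP for 4 of these 8 genes and for 73.5% of all genes, whose median ratio was 1.45. Without KP 5, the SD of Cdh1, Epcam and Vim in KP was 0.16, 0.17 and 0.40 (n = 4). In KPG1 it was 0.14, 0.19 and 0.39 (n = 5), with no library removed. KP 5 lay farthest from the KP mean for each of these genes, so its removal had to lower the SD. KP 5 was the lowest library for Cdh1, Cdh2, Vim, Zeb1 and Zeb2 and the highest for Epcam. Among all genes it was the lowest for 20.2% and the highest for 22.2%.

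**Figure D4:**
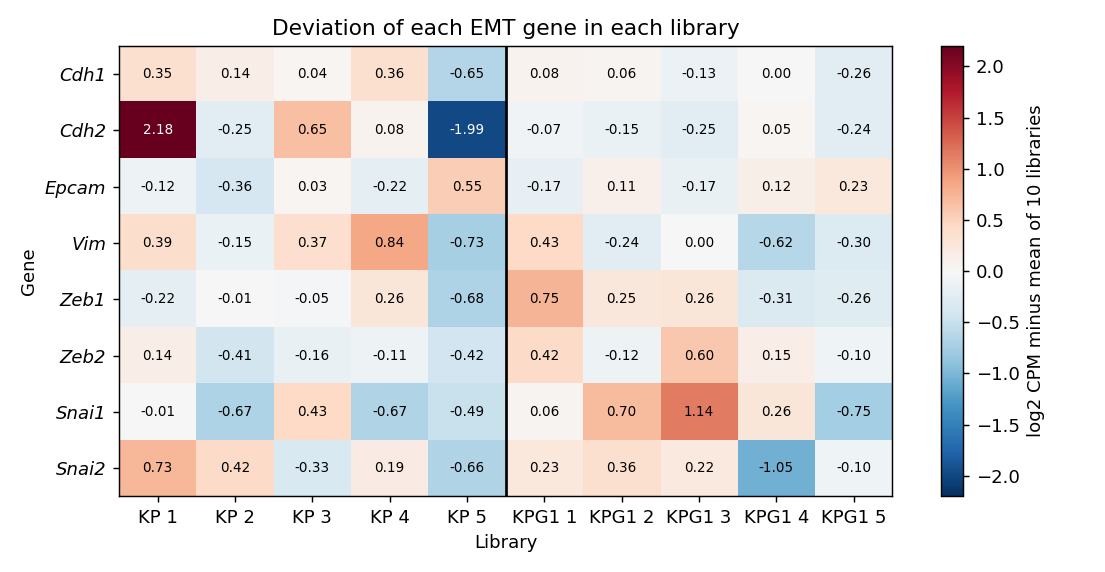
Deviation of each tested EMT gene (rows) from its mean over the 10 libraries, in log2 CPM, by library (columns), as a colour from blue for below to red for above the mean, with the value in each cell. KP 5 lies above the mean for Epcam and below it for the other 7 genes, and the deviations of Cdh2 in KP 1 (2.18) and KP 5 (-1.99) are the widest.

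The other genes of the pathway were read from 5 lists. None of their genes passed an adjusted p of 0.05 in limma, in either direction. For single directions the background was 5.26% of all genes higher and 6.31% lower at an unadjusted p under 0.05, 1.05% higher and 1.76% lower without overlap, and 0.0617% higher and 0.111% lower at the adjusted threshold.

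**Figure D5:**
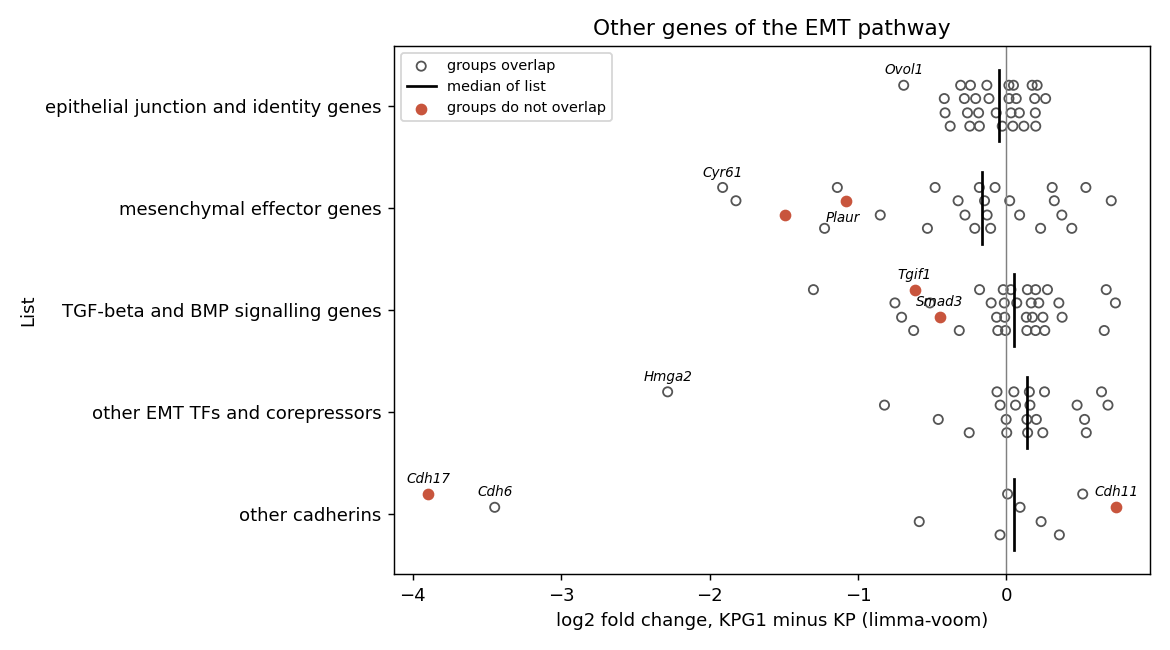
Log2 fold change (KPG1 minus KP, limma-voom) of the tested genes of 5 EMT pathway lists, with 1 circle per gene, red where the groups do not overlap, and the median of a list as a black line. Plaur, Tgif1, Smad3 and Cdh17 lie below 0 and Cdh11 above 0 without overlap between groups.

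Epithelial junction and identity genes, among them parts of adherens and tight junctions and epithelial transcription factors, had small fold changes. No keratin gene was in this list. All 30 were tested, with 14 positive and 16 negative values and a median log2 fold change of -0.05. An unadjusted p under 0.05 was found for 1 of them, Ovol1, an epithelial repressor of the EMT factors, which stood at 4.98, 3.90, 4.41, 4.32 and 4.29 log2 CPM in KP and 2.93, 3.51, 4.14, 4.03 and 3.94 in KPG1. Its log2 fold change was -0.69 and its limma adjusted p 0.342. The catenin genes Ctnna1 and Ctnnd1 had the next smallest p-values.

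Mesenchymal effector genes encode matrix proteins, proteases and their regulators. Of 26 tested, 9 had a positive and 17 a negative log2 fold change, with a median of -0.16. An unadjusted p under 0.05 was found for 1 in the higher and 7 in the lower direction, and groups did not overlap for 2, both lower in KPG1. Plaur, the receptor of urokinase, was among these 2.

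Plaur stood at 6.33, 6.16, 6.61, 6.21 and 5.43 log2 CPM in KP 1 to KP 5 and at 4.74, 5.09, 4.78, 5.38 and 5.39 in KPG1 1 to KPG1 5. All KP libraries lay above all KPG1 libraries, KP 5 only narrowly. Its fitted log2 fold change was -1.08 (standard error 0.22, adjusted p 0.0862 in limma). Thbs1, the matrix protein thrombospondin-1, had a log2 fold change of -1.14 and Cyr61, a matricellular target of YAP signalling, one of -1.91. Their groups overlapped, and their limma adjusted p-values were 0.230 and 0.236. DESeq2 called 6 of the 26 genes lower, among them Plaur, Thbs1, Cyr61, Axl and Mmp9, beside 423 of all 16216 genes. Voom with a weight per library called 4 lower, among them Plaur, Thbs1 and Cyr61, beside 177 of all 16216 genes. Without KP 5, limma called Plaur and Thbs1 lower, beside 223 of all 16476 genes.

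Genes of TGF-beta and BMP signalling, a pathway that induces EMT, were tested for 34 of 35. The median log2 fold change was 0.05, with 18 positive and 16 negative values. An unadjusted p under 0.05 was found for 2 in the higher and 5 in the lower direction, and groups did not overlap for 2, Tgif1 and Smad3, both lower in KPG1. Tgif1, a corepressor of SMAD proteins, had 7.47, 7.33, 7.51, 7.71 and 7.15 log2 CPM in KP and 6.90, 6.64, 6.64, 6.84 and 7.07 in KPG1. Smad3, a mediator of TGF-beta signalling, had 7.23, 7.13, 7.18, 7.17 and 7.12 in KP and 6.56, 6.90, 6.59, 6.85 and 6.68 in KPG1. The closest libraries were KP 5 and KPG1 5 for Tgif1 and KP 5 and KPG1 2 for Smad3.

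The log2 fold change of Tgif1 was -0.62 (adjusted p 0.111 in limma) and that of Smad3 -0.45 (adjusted p 0.142 in limma). Smad7, the inhibitory SMAD, had a log2 fold change of -0.71 and the ligand gene Bmp2 one of -1.30, with limma adjusted p-values of 0.224 and 0.236. KP 5 lay lowest in KP for both, at 6.40 for Smad7 and 4.41 for Bmp2, within the range of KPG1. DESeq2 called Tgif1, Smad3, Smad7, Bmp2 and Skil lower and Id2 higher, of 34 genes tested. Over all 16216 genes it called 423 lower and 125 higher. Without KP 5, limma called Tgif1, Smad3, Smad7 and Bmp2 lower, beside 223 of all 16476 genes.

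Other EMT transcription factors and corepressors were tested for 22 of 25, with a median log2 fold change of 0.14. Groups did not overlap for 0 of them, and an unadjusted p under 0.05 was found for 1 in the higher and 3 in the lower direction. Hmga2, a chromatin factor of fetal tissue and of advanced lung tumours, had 5.46, 4.31, 5.23, 5.36 and 3.33 log2 CPM in KP and 0.81, 2.11, 2.19, 3.02 and 4.39 in KPG1. The groups overlapped through KPG1 5, which lay above KP 2 and KP 5. Its log2 fold change was -2.28 (adjusted p 0.206 in limma). That of Foxq1, a forkhead factor, was -0.82 (adjusted p 0.257 in limma). Without KP 5, limma called both lower, beside 223 of all 16476 genes. Prrx1, a mesenchymal homeobox factor, stood at 0.68 and the corepressor gene Ctbp2 at -0.25, with limma adjusted p-values of 0.369 and 0.426.

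Among 20 other cadherin genes, 10 were tested, and the largest limma fold change of all 5 lists was that of Cdh17, the cadherin of intestinal epithelium. It had 725, 97, 702, 2144 and 585 counts in KP 1 to KP 5 and 5, 91, 70, 90 and 45 counts in KPG1 1 to KPG1 5. In log2 CPM these were 4.13, 1.63, 4.25, 5.66 and 3.75 in KP and -2.65, 1.26, 0.71, 1.39 and 0.27 in KPG1. KP 2 lay just above the KPG1 libraries and the other KP libraries well above them. The fitted log2 fold change was -3.90 (standard error 0.98, adjusted p 0.171 in limma).

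Cdh6, a cadherin of kidney and mesenchyme, had a log2 fold change of -3.45 (adjusted p 0.225 in limma), with KP 2 inside the range of KPG1, and its fold change was larger than that of Cdh17 in edgeR (-4.05 against -3.74) and in DESeq2 (-4.08 against -3.76). Cdh11, the cadherin of fibroblasts and osteoblasts, was higher in KPG1 without overlap, at 2.88, 2.16, 2.47, 2.26 and 2.53 log2 CPM in KP and 3.62, 2.89, 3.00, 3.27 and 3.22 in KPG1. Its log2 fold change was 0.74 (adjusted p 0.206 in limma), and the difference between KP 1 and the lowest KPG1 library was small. The summed level of 8 fibroblast markers was 297, 139, 297, 148 and 119 CPM in KP and 354, 195, 272, 267 and 274 CPM in KPG1, so the lowest 3 sums were all in KP. Of these markers 7 had a positive log2 fold change, with a median of 0.49. An unadjusted p under 0.05 in limma was found for 2, both higher, beside 5.26% of all genes higher. The part of fibroblasts in the level of Cdh11 was not tested. Cdh24 had a log2 fold change of 0.51 (adjusted p 0.579 in limma). DESeq2 called Cdh17 and Cdh6 lower and Cdh11 higher, beside 423 lower and 125 higher of all 16216 genes.

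Markers of the labelled tissue and of other cells were read beside these levels. The summed level of 7 alveolar type 2 markers, the cell type in which the tumours were started, was 17514, 57893, 53787, 25798 and 58965 CPM in KP and 83574, 58414, 46367, 58203 and 59422 CPM in KPG1. These sums overlapped, but all 7 markers had a positive log2 fold change, with a median of 0.97. An unadjusted p under 0.05 in limma was found for 3 of them, all higher, beside 5.26% of all genes higher. An adjusted one was found for 0, beside 0.0617% of all genes higher. The groups did not overlap for 1, Abca3, a lipid transporter gene, higher in KPG1, beside 1.05% of all genes. The part of this shift in the levels of the EMT genes was not tested. The other sums overlapped between the groups as well. They were 680 to 2849 CPM for alveolar type 1, 28.0 to 323 for club, 17.0 to 42.5 for ciliated and 79.6 to 319 for mesothelial markers. For blood lineages, after the removal of CD45-positive cells, the sums were 41.6 to 107 CPM for myeloid, 0.827 to 1.65 for lymphoid and 86.3 to 473 for erythroid markers. Ptprc, the gene of CD45, averaged 7.04 CPM in KP and 7.75 CPM in KPG1. Ptprc was 1 of 8 myeloid markers, of which 1 had a positive and 7 a negative log2 fold change, with a median of -0.32. An unadjusted p under 0.05 in limma was found for 1 of the 8, in the lower direction, beside 6.31% of all genes. Groups did not overlap for 1, lower in KPG1, beside 1.76% of all genes. No marker of any list was at 0 in all libraries.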

How the data were processed

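RNA was measured in 10 libraries, prepared with TruSeq stranded mRNA reagents and sequenced single-end. Per the labels' processing notes, the authors used bcl2fastq 2.17, cutadapt 1.4.2 (the methods give a later version), HISAT2 on mm10 and featureCounts 1.4.4. The strand setting and annotation release are not given in the sources used here. The deposited counts are whole reads per gene, not normalized, and the joint table held the same 390170 values as the tables of each library. A second deposited table, in log2, was made by the authors with TMM factors and voom and was not used for tests.

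Genes were filtered with filterByExpr of edgeR 4.0.16, which left 16216, scaled by TMM and fitted with voom and limma 3.58.1 in R 4.3.3, with genotype as the only term. The study filtered on TPM, for which filterByExpr stands in. P-values were adjusted by Benjamini-Hochberg over all genes tested, with a threshold of 0.05. Log2 CPM used a prior count of 2. Lengths and positions came from GENCODE on mm10, and lengths are exon unions. Fits were tested on simulated data. Likeness was Pearson's r of log2 CPM among tested genes with a mean of at least 1. Alternatives were edgeR's quasi-likelihood test, DESeq2 1.42.0 and its size factors, no filter, a mean CPM of at least 20, library weights, the replicate number as a block and each library left out. Subtraction of chromosome medians was added after the data were seen.

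The EMT genes and the lists, written from general knowledge, were chosen with earlier results of these data known. Named genes were Slc2a1, the EMT genes, the 3 genes most like each, and up to 4 genes per list with the smallest p. Abca3 and the genes named beyond these from DESeq2's calls were chosen after their values were seen. Sequences and positions on chromosome 18, the engineered tumour-starting alleles and some genes that the naming rule took are not reported here. Reads carried no molecular identifiers, so floors cover counting error only. Plots were drawn with matplotlib 3.10.9.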

Additional observations from a re-analysis of the deposited data

Results flagged for a closer look

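The summed level of pericyte and smooth muscle markers in KP 1 was 284 CPM, while the other KP libraries lay between 75.3 and 132 CPM. The gap to the nearest library was 0.728 of the range of the group. KP 1 was also the library with the highest Cdh2. The summed level of endothelial markers in KPG1 1 was 1156 CPM, while the other KPG1 libraries lay between 393 and 598 CPM, a gap of 0.731 of the range. KPG1 1 was also the library with the highest Zeb1 and the highest sum of fibroblast markers. Both gaps passed Dixon's 95% critical value for 5 samples, 0.71. In all, 40 groups were searched, of which 2 passed, and chance flags about 1 in 20 groups.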

How the results depend on the processing

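None of the EMT genes passed an adjusted p of 0.05 under any alternative run. Log2 fold changes that turned were those of Epcam (0.05, to -0.043 with chromosome medians removed, and -0.040 to 0.18 with 1 library left out), Snai2 (-0.13, to 0.014 with chromosome medians removed, and -0.34 to 0.12 with 1 library left out) and Cdh2 (-0.26, and -0.85 to 0.28 with 1 library left out). An unadjusted p under 0.05 appeared in limma for Zeb2 without KP 1 or KPG1 5, Cdh1 without KP 5 and Snai1 without KPG1 5. At a mean CPM of at least 20, only Cdh1, Epcam and Vim could be tested.

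Across all 16216 genes tested, 10 were higher and 18 lower. DESeq2 and library weights were run on the same 16216 genes. The counts were 125 and 423 in DESeq2, 51 and 177 with library weights, 5 and 31 at a mean CPM of at least 20, and 4 and 1 with the replicate number as a block. The count of lower genes was 29 in edgeR, 31 without a filter and 42 with chromosome medians removed. With 1 library left out, 3 to 71 were higher and 1 to 223 lower, the highest counts without KP 5. Replicate numbers did not pair the libraries, since same-numbered deviations correlated at -0.16 to 0.08 and 1 of 5 libraries correlated best with its own number.

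Of the pathway lists, none of whose genes passed, DESeq2 called 6 mesenchymal effector genes lower, 1 TGF-beta and BMP gene higher and 5 lower, 2 other EMT factors lower, and 1 cadherin higher and 2 lower. Library weights gave 4 mesenchymal effector and 3 TGF-beta and BMP genes, all lower. With 1 library left out, 0 to 2 mesenchymal effector, 0 to 4 TGF-beta and BMP and 0 to 2 other EMT factor genes were lower. Slc2a1 passed the threshold in DESeq2 (-1.04), with library weights (-1.13) and with chromosome medians removed (-1.07), and lay between -1.14 and -0.92 with 1 library left out, passing without KP 5. The cause of these shifts was not tested. Depth limits Twist1 and Twist2 and adds counting error to Snai2 and Cdh2.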
